A study of Mus musculus with 12 samples.

Results

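Cytosolic ribosomal protein genes were taken as the protein-coding genes named *Rpl* or *Rps* followed by a digit, without the *Rps6k* kinases, together with *Rplp0*, *Rplp1*, *Rplp2* and *Rpsa*. Of the 54532 genes in the count table, 94 met this rule. They comprised 43 genes of the large (60S) subunit, 31 genes of the small (40S) subunit including *Rpsa*, 3 genes of the stalk and 17 paralogues or rows with another suffix. The 77 genes of the subunits and the stalk (the classic genes) had enough counts to be tested in at least 1 pairwise comparison, as did 8 of the 17 others, so that 85 of 94 genes were tested. The other 9 rows had between 0 and 22 counts in a library and are given no fold change, although *Rpl39l* passed the filter of the interaction over 12 libraries.

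RNA-seq was performed on bone marrow macrophages (BMMs), grown with the growth factor CSF-1 from the marrow of femur and tibia of C57BL/6J wild-type animals 2 to 3 months old. The BMMs grew on plain dishes or on dishes coated with fibronectin at 10 µg/ml, and received either control IgG or an antibody that neutralizes integrin α5 (anti-ITGA5), each at 10 µg/ml over 24 h. Fibronectin is the matrix ligand of integrin α5β1, and the 4 groups of 3 libraries compare the antibody on each surface and the coating under each antibody. The study describes its macrophage experiments as biologically independent, whereas the labels do not say whether the 3 libraries of a group came from separate mice or cultures, and p-values measure only the spread between these libraries. Between 12954342 and 22075432 reads were counted on genes in a library. The 8 macrophage markers checked were detected in every library, with *Cd68* at 929 to 1180 FPKM, whereas of 5 neutrophil markers *S100a8* was the highest at 1.32 to 3.42 FPKM and *Ly6g* was listed at 0 throughout. RNA was pooled over all cells of a dish, so that a change in the cells present and a change in RNA per cell cannot be told apart.

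The ribosome consists of a large subunit that forms peptide bonds and a small subunit that decodes the message, and nearly each of its proteins is encoded by a single active gene with many processed pseudogenes. The mRNAs of these proteins usually begin with a terminal oligopyrimidine (TOP) tract, a C at the cap followed by further C or T bases, through which the mTORC1 pathway and LARP1 adjust their translation. In macrophages, ribosomal protein mRNAs are among the most abundant transcripts, and their synthesis accompanies growth and proliferation.

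The start of transcription was read from RefSeq promoters (GRCm38.p6), which held 66 of the 94 genes. A TOP start, a C at the annotated first base followed by at least 4 more pyrimidines, was present in 14 of these 66 genes (21.2%), against 3.01% of the 27025 genes in the promoter table. When a TOP tract was allowed to begin within 5 bases of the annotated start, it was present in 30 of 66 genes (45.5%), against 21.2% of all genes. The sequences below run from 10 bases before to 20 bases from the annotated start, 5′ to 3′, with the pyrimidine run from the C nearest to the annotated start in capitals. They show 4 genes with a tract at or next to the start, *Rps27* and its retrocopy *Rps27rt*, which share the bases that follow the tract, and 4 of the genes whose antibody response is described further on.
Rps6, chr4:86857348-86857377, minus strand: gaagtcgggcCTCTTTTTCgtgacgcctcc
Rpl35, chr2:39005112-39005141, minus strand: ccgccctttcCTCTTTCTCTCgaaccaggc
Rpl15, chr14:18270967-18270996, minus strand: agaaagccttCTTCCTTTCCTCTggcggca
Rpl7a, chr2:26910797-26910826, plus strand: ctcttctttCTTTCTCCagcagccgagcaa
Rps27, chr3:90213629-90213658, minus strand: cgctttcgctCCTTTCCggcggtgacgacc
Rps27rt, chr9:114982720-114982749, minus strand: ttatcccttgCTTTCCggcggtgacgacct
Rps2, chr17:24720053-24720082, plus strand: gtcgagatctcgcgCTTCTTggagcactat
Rpl12, chr2:32961702-32961731, plus strand: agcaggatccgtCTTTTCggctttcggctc
Rps26, chr10:128626487-128626516, minus strand: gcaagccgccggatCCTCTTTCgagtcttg
Rpl4, chr9:64173377-64173406, plus strand: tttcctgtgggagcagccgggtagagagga
The capitals begin 1 base before the annotated start in *Rpl7a*, where the bases printed before them are pyrimidines as well, 2 bases after it in *Rpl12* and 4 bases after it in *Rps2* and *Rps26*. No tract was found in the searched window of *Rpl4*, which says only that these letters are not at the annotated start.

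Levels were compared between genes as FPKM, which the authors scaled to the gene length of their annotation. For *Rpl17* this length was 775 bases, against 1327 exon bases in the GENCODE M21 annotation. The highest of the 77 classic genes over 12 libraries was *Rplp1*, a P-protein of the stalk that recruits translation factors, with a mean of 1083 FPKM. It was followed by the stalk scaffold *Rplp0* at 569 FPKM, *Rps15* at 567 FPKM, *Rps3a1* at 555 FPKM and *Rpl17* at 544 FPKM. Of the last 4 genes, *Rps15* was the lowest in IgG without fibronectin, at 524 FPKM, and the highest in anti-ITGA5 with fibronectin, at 615 FPKM, so that their order differed between groups. The remaining P-protein gene, *Rplp2*, was listed at 102 FPKM, although the P1 and P2 proteins pair with each other. Its annotated length was 2072 bases, against 499 bases in *Rplp1*, and its counts were 2367 to 4473 per library, against 6117 to 11540 for *Rplp1*. *Rpsa*, which encodes a small-subunit protein also known as the laminin receptor, was listed at 273 FPKM.

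**Figure D1:**
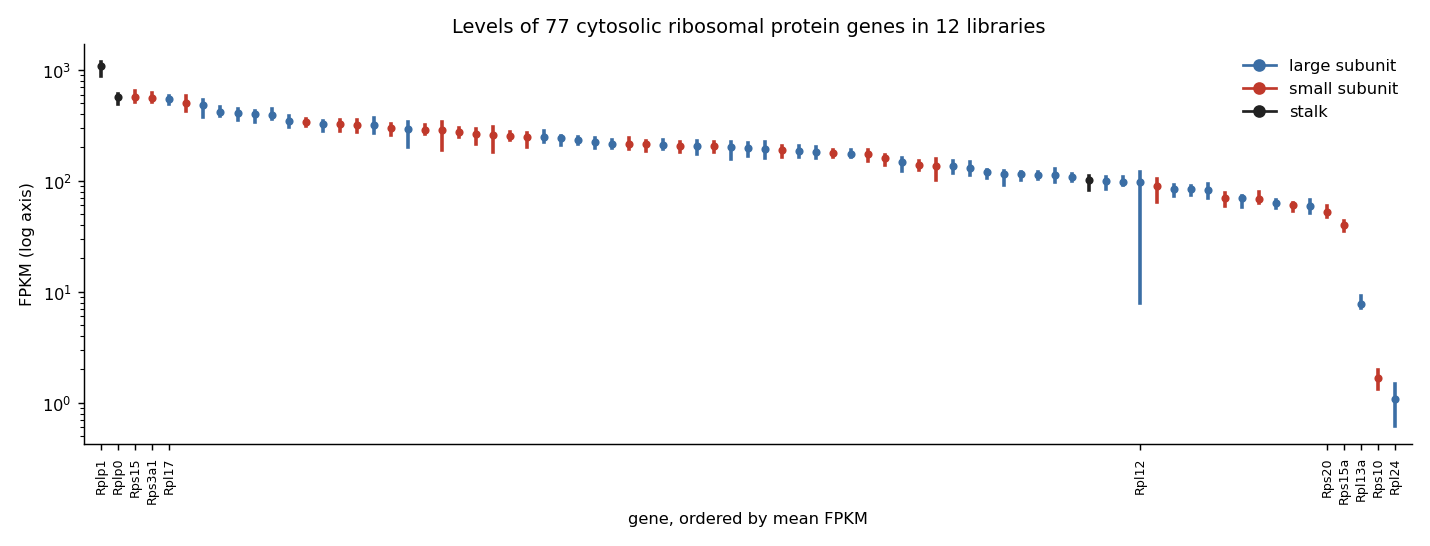
FPKM of the 77 classic genes on a log axis, ordered by the mean over 12 libraries (points), with lines from the lowest to the highest library, in blue for the large subunit, red for the small subunit and black for the stalk. The 5 highest and 5 lowest genes and *Rpl12* are labelled. The levels run from 1083 FPKM in *Rplp1* to 1.07 FPKM in *Rpl24*, with *Rpl13a*, *Rps10* and *Rpl24* far below the others and a single low library in *Rpl12*.

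The lowest classic genes were *Rpl24* at 1.07 FPKM, *Rps10* at 1.69 FPKM, *Rpl13a* at 7.84 FPKM, *Rps15a* at 40.3 FPKM and *Rps20* at 52.5 FPKM. *Rpl24* had 11 to 32 counts per library, *Rps10* 57 to 86 and *Rpl13a* 206 to 363, although their products are single-copy components of each ribosome. In the GENCODE M21 annotation (GRCm38), 47% of the exon bases of *Rpl24* also belonged to Gm28037, 28.7% of those of *Rps10* to *RPS10-NUDT3* or Gm15420, and 35.4% of those of *Rpl13a* to Gm45713 and 2 small RNA genes. Of the 150-base windows in the first annotated transcript (read length), 72.5% in *Rpl24*, 72.4% in *Rps10* and 52.7% in *Rpl13a* also occurred in a transcript of another gene. Shared windows were not particular to the low genes, since *Rps6*, at 253 FPKM, shared 82.4% of its windows. Neither was exon overlap, which was 66.2% in *Rpl35*, at 181 FPKM, and 62.3% in *Rpl23a*, at 195 FPKM. The part of shared sequence in these levels was not tested, and the values of genes that share sequence are uncertain. The 297 rows annotated as pseudogenes of ribosomal protein genes took 0.345% to 0.427% of the counts on all ribosomal protein rows of a library.

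Counts on the 94 genes made up 2.62% to 3.08% of a library. In IgG without fibronectin, the share was 2.73%, 2.76% and 2.74% in replicates 1, 2 and 3. In anti-ITGA5 without fibronectin, it was 3.08%, 2.62% and 3.01%. In IgG with fibronectin, it was 2.84%, 2.76% and 2.76%, and in anti-ITGA5 with fibronectin 3.04%, 3.08% and 2.86%. Shares were thus higher in the anti-ITGA5 libraries than in each IgG library, except in replicate 2 without fibronectin, where the share was the lowest of the 12 libraries.

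**Figure D2:**
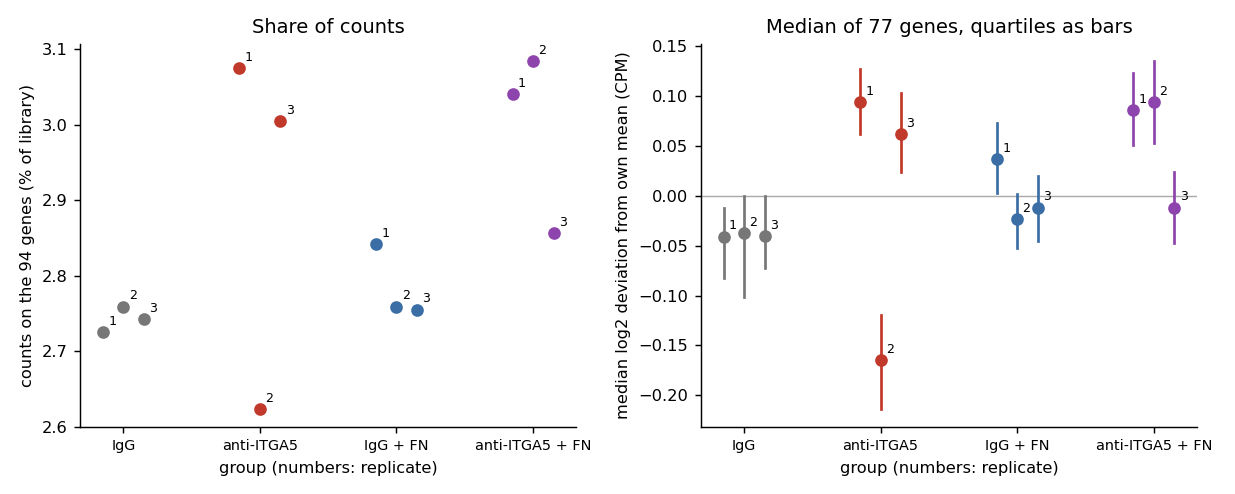
Left, counts on the 94 genes as a percentage of all counts in each library. Right, median over the 77 classic genes of the deviation of log2 CPM, the count scaled to the library size, from the mean of the gene over 12 libraries, with quartiles as bars. Replicate 2 of anti-ITGA5 without fibronectin lies lowest in both panels, at 2.62% and a median of -0.16, and replicate 3 of anti-ITGA5 with fibronectin lies below the other 2 libraries of its group.

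Replicate 2 of anti-ITGA5 without fibronectin stood apart from its group. In this library only 1 of the 77 classic genes lay above its own mean over 12 libraries, against 73 genes in replicate 1 and 68 genes in replicate 3. It had the smallest total count, 12954342, and the most genes with a count, 21123. Among 8466 genes with a mean of at least 200 counts, 17 were more than 1 log2 unit below both other libraries of the group, and 9 were more than 1 above both. No gene was more than 1 below both other libraries in any of the remaining 11 libraries. The list of 17 held *Rpl12*, *Hsp90aa1*, mitochondrial ribosomal RNAs and the 8 measured genes named *Rrp* followed by a digit, which encode ribosomal RNA processing factors. *Rrp1* was at 5.08% and *Rrp7a* at 6.8% of their median in the other 11 libraries, and *Hsp90aa1*, a chaperone gene, was at 2.99%. The cause of these values was not tested. Whether reads of these genes were removed from this library before counting was not tested either, so that its values for *Rpl12* and the *Rrp* genes are uncertain. Counts of calls that rest on this library are given with and without it. It was singled out in part by the low level of the ribosomal protein genes themselves. Leaving it out raises their log2 fold changes without fibronectin through that choice, so the counts without it do not test whether these genes rose.

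*Rpl12* (chr2:32961559-32965345, plus strand), which encodes a protein at the base of the stalk, had a single library far below the others. Its level was 101, 101 and 98.2 FPKM in IgG without fibronectin, 115, 7.99 and 113 FPKM in anti-ITGA5, 103, 98.8 and 100.5 FPKM in IgG with fibronectin, and 113, 119 and 110 FPKM in anti-ITGA5 with fibronectin. Replicate 2 of anti-ITGA5 without fibronectin held 396 counts, or 8.39% of the median CPM in the other 11 libraries, and the other 2 libraries of that group lay above each IgG library. Without fibronectin, the log2 fold change from IgG to anti-ITGA5 was -0.34 ± 0.61 (SE, adjusted p = 0.743 by edgeR). Without replicate 2 it was 0.19 ± 0.0374 (adjusted p = 0.00139). With fibronectin, where this library takes no part, *Rpl12* rose by 0.17 ± 0.0423 (adjusted p = 0.00853).

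With fibronectin, anti-ITGA5 raised 14 of the 85 tested ribosomal protein genes by small amounts and lowered none at an adjusted p of 0.05 or less in the quasi-likelihood test of edgeR. The increases ranged from 0.14 to 0.22 on the log2 scale, or 10.1% to 16.3%. The 7 large-subunit genes were *Rpl4*, *Rpl7a*, *Rpl12*, *Rpl23a*, *Rpl29*, *Rpl36* and *Rpl36a*, the 6 small-subunit genes included *Rps2*, *Rps15*, *Rps20* and *Rps26*, and the paralogue was *Rpl7l1*. These 14 genes make up 16.5% of those tested, close to the 14.4% of all 12916 genes that were called higher. The 0 lower calls compare with 13.2% of all genes, while DESeq2 called 14 higher, against 12.6% of all genes, and 0 lower, against 10.9%. With p taken unadjusted and under 0.05, there were 20 higher genes, against 19.8% of all genes, and 1 lower gene, *Rpl10*, against 18.9%. Log2 fold changes were positive in 69 of 85 genes, with a median of 0.055, against -0.0038 over all genes.

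*Rpl7a* (chr2:26910764-26913318, plus strand), which encodes a protein of the large subunit, had the smallest adjusted p. It was measured at 234, 238 and 225 FPKM in IgG with fibronectin and at 274, 282 and 256 FPKM in anti-ITGA5 with fibronectin. Without fibronectin it was measured at 227, 229 and 231 FPKM in IgG and at 271, 231 and 269 FPKM in anti-ITGA5. The groups did not overlap with fibronectin, and without it replicate 2 of anti-ITGA5 lay level with the highest IgG library. The log2 fold change was 0.22 ± 0.0434 with fibronectin (adjusted p = 0.00261) and 0.17 ± 0.0616 without (adjusted p = 0.0741), where omission of replicate 2 gave 0.24 ± 0.0371 (adjusted p = 0.000221). *Rpl7a* was called with fibronectin under each of the 20 alternatives run, with adjusted p from 4.59e-06 to 0.0488.

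*Rpl4* (chr9:64173375-64178666, plus strand), a large-subunit protein that lines the peptide exit tunnel, was measured at 395, 391 and 384 FPKM in IgG with fibronectin and at 451, 459 and 426 FPKM in anti-ITGA5 with fibronectin. The 3 anti-ITGA5 libraries lay above the 3 IgG libraries. The increase was 0.19 ± 0.0388 (adjusted p = 0.00312). Without fibronectin *Rpl4* was measured at 390, 391.8 and 395 FPKM in IgG and at 451, 395 and 445 FPKM in anti-ITGA5, and the groups touched only through replicate 2. There the difference was 0.14 ± 0.0563 (adjusted p = 0.11), and without replicate 2 it was 0.19 ± 0.037 (adjusted p = 0.00125).

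*Rps2* (chr17:24718116-24721929, plus strand), which encodes a small-subunit protein near the mRNA entry channel, was the only ribosomal protein gene called in both antibody comparisons. It was measured at 444, 428 and 457 FPKM in IgG without fibronectin, at 553, 453 and 554 FPKM in anti-ITGA5, at 506, 484 and 494 FPKM in IgG with fibronectin and at 556, 581 and 527 FPKM in anti-ITGA5 with fibronectin. Replicate 2 of anti-ITGA5 without fibronectin lay within the range of IgG, and the other libraries of both anti-ITGA5 groups lay above their controls. The increase was 0.23 ± 0.0721 without fibronectin (adjusted p = 0.0422) and 0.16 ± 0.0423 with fibronectin (adjusted p = 0.0128). Without replicate 2, the increase without fibronectin was 0.32 ± 0.0397 (adjusted p = 2.85e-05).

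*Rps15* (chr10:80292453-80294114, plus strand), a protein of the small-subunit head, was measured at 564, 521 and 521 FPKM in IgG with fibronectin and at 631, 637 and 576 FPKM in anti-ITGA5 with fibronectin, without overlap. It rose by 0.20 ± 0.0485 (adjusted p = 0.00922). *Rps20*, also of the small-subunit head and the fifth lowest classic gene, was measured at 51.4, 50.1 and 50.6 FPKM in IgG and at 59.6, 57 and 52.3 FPKM in anti-ITGA5 with fibronectin, and rose by 0.15 ± 0.0481 (adjusted p = 0.0353). *Rpl36* rose by 0.20 ± 0.0578 (adjusted p = 0.02) and *Rpl36a* by 0.17 ± 0.052 (adjusted p = 0.0317). Both were among the 3 called genes whose FPKM overlapped between IgG and anti-ITGA5, through replicate 3 of anti-ITGA5 and replicate 1 of IgG.

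**Figure D3:**
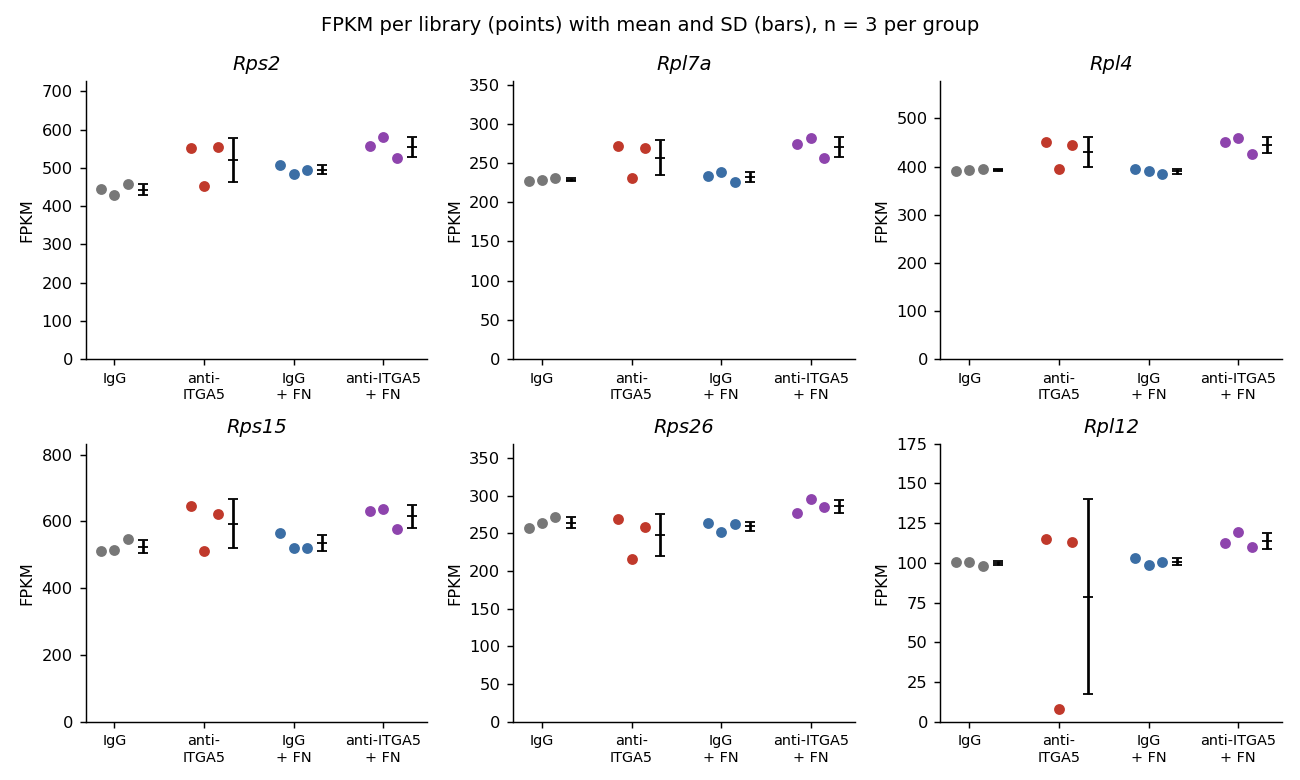
FPKM of 6 ribosomal protein genes in each library (points, replicates 1 to 3 from left to right) with the mean and SD of the 3 libraries as bars, on axes that start at 0. In *Rps2*, *Rpl7a*, *Rpl4* and *Rps15* the middle library of anti-ITGA5 without fibronectin (red) lies near the IgG level, and in *Rpl12* it lies at 7.99 FPKM.

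The groups did not overlap, with the 3 anti-ITGA5 libraries above the 3 IgG libraries in FPKM, in 18 of 85 genes with fibronectin, against 21.7% of all genes, and in 3 of 84 genes without fibronectin, against 18.7%. The count without fibronectin includes replicate 2 of anti-ITGA5, where these genes were lowest, and was not repeated without that library. Replicate 3 of anti-ITGA5 with fibronectin had a lower ribosomal protein level than replicates 1 and 2, and without it 26 of 87 genes were called higher, against 15.6% of all genes. This library was picked out by that lower level, so a higher count without it follows in part from the choice. Leaving out any of the other 5 libraries lowered both the number and the share of all genes. It was 11 of 86 without IgG replicate 1, against 10.2% of all genes, 5 of 86 without IgG replicate 2, against 11.2%, and 6 of 86 without IgG replicate 3, against 10.3%. It was 5 of 85 without anti-ITGA5 replicate 1, against 10% of all genes, and 7 of 86 without anti-ITGA5 replicate 2, against 11.2%. In replicate 3, 17 genes of the 8466 were more than 1 log2 unit above both other libraries, among them the interferon-induced genes *Irf7* and *Oasl2*, and the part of this difference in the ribosomal protein values was not tested.

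Without fibronectin, the only ribosomal protein gene called among 84 was *Rps2*, where 11% of all 12924 genes were called higher and 9.79% lower. At an unadjusted p under 0.05, 11 genes were higher, against 17.3% of all genes, and 2 lower, namely *Rpl24* and *Rpl22l1*, against 16.2%. DESeq2 called 4 higher (*Rps2*, *Rps20*, *Rps19* and *Rpl7a*), against 9.52% of all genes, and 0 lower, against 8.88%. The median log2 fold change was 0.036, against 0.0090 over all genes, and 55 of 84 values were positive. Without replicate 1 of anti-ITGA5 the median was -0.013, against 0.015 over all genes, with 37 of 85 values positive. Without replicate 3 it was 0.0093, against 0.0060, with 44 of 86 values positive. Without replicate 2 of anti-ITGA5, 40 of 86 genes (46.5%) were called higher, by 0.11 to 0.32, and 0 were called lower, where 15.1% of all genes were called higher and 14% lower. The median then was 0.11, against -0.0032 over all genes. Because the omitted library was chosen in part for its low values of these genes, these numbers cannot decide whether the genes rose. In that fit 48 genes were higher and 2 lower at an unadjusted p under 0.05, against 20.4% and 19.7% of all genes. Leaving out any of the other 5 libraries in turn left 0 genes called higher by edgeR, against 6.34% to 8.56% of all genes, and 1 to 3 higher at an unadjusted p under 0.05, against 13.6% to 15.8%.

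The 40 genes called without replicate 2 comprised 21 of 43 large-subunit genes, 17 of 31 small-subunit genes, *Rplp0* and the paralogue *Rpl7l1*. They included 11 of the 14 genes called with fibronectin, in libraries that the comparison without fibronectin does not use. Among the genes tested on both surfaces, these 11 are 12.9% of 85 ribosomal protein genes, against 10.8% of 12763 genes called higher on both. The 3 genes called only with fibronectin were *Rpl23a*, *Rpl29* and *Rps26*, and whether their response differed between surfaces is given by the interaction below. Of 85 genes tested in both, 66 (77.6%) had positive log2 fold changes in both antibody comparisons when replicate 2 was left out, against 39.3% of 12763 genes. With all libraries, the corresponding numbers were 49 of 84 genes (58.3%) and 40.2% of 12681 genes. The higher share without replicate 2 follows in part from the choice of that library by its low ribosomal protein values.

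**Figure D4:**
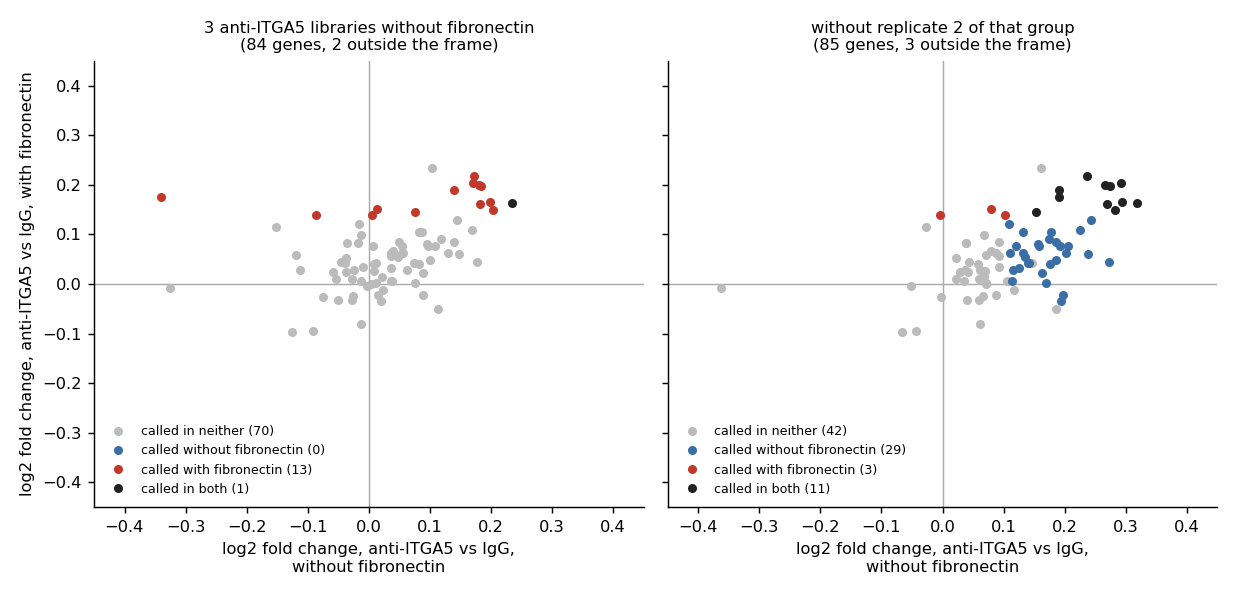
Log2 fold change of each ribosomal protein gene from IgG to anti-ITGA5 without fibronectin (horizontal) and with fibronectin (vertical), with all libraries on the left and without replicate 2 of anti-ITGA5 without fibronectin on the right. Colours give the calls at an adjusted p of 0.05 or less; without replicate 2, 40 genes were called without fibronectin, of which 11 were called with fibronectin as well. The frame leaves out 2 genes on the left and 3 on the right.

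The stalk genes and *Rpsa* were not called in any of the 5 comparisons with all libraries. *Rplp0* was at 556 ± 15.4, 569 ± 66, 569 ± 7.34 and 582 ± 3.82 FPKM (SD, n = 3) in IgG and anti-ITGA5 without fibronectin and then in IgG and anti-ITGA5 on the coating, and *Rplp1* at 1063 ± 34.6, 1053 ± 145, 1095 ± 29.2 and 1122 ± 55.4 FPKM. The spread was widest in anti-ITGA5 without fibronectin for each of them. The log2 fold changes of the 3 stalk genes upon ITGA5 neutralization lay between -0.059 and 0.037 over both surfaces. Without replicate 2, *Rplp0* rose by 0.12 ± 0.039 (adjusted p = 0.0259) and *Rpsa* by 0.11 ± 0.039 (adjusted p = 0.0463) in the absence of fibronectin.

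*Rpl10*, which encodes a large-subunit protein next to the catalytic centre, had the smallest p of the 16 genes with a negative log2 fold change with fibronectin. It was measured at 348, 346 and 342 FPKM in IgG with fibronectin and at 329, 326 and 315 FPKM in anti-ITGA5 with fibronectin, so that each value under the neutralizing antibody was lower than each control. Its log2 fold change was -0.10 ± 0.0358, which was not called (adjusted p = 0.0645). Among the alternative fits, *Rpl10* was called lower with a replicate block, with a trend in gene length removed, and with both. Without fibronectin it was measured at 332, 336 and 342 FPKM in IgG and at 323, 279 and 321 FPKM in anti-ITGA5, again without overlap. There its log2 fold change was -0.13 ± 0.0597 (adjusted p = 0.17), and -0.066 ± 0.0379 when replicate 2 was left out (adjusted p = 0.214). On this surface it was called lower only after removal of the length trend, with or without the block. In *Rpl10*, 90.9% of the 150-base windows also occurred in transcripts of other genes. This gene was singled out after its values were seen.

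Fibronectin alone was examined in IgG, in libraries that also serve as controls of the antibody comparisons. No ribosomal protein gene was called higher or lower among 85 (edgeR), where 0.325% of all 12925 genes were called higher and 0.124% lower. At an unadjusted p under 0.05, 14 genes were higher and 0 lower, against 5.3% and 4.5% of all genes. DESeq2 called *Rps2*, *Rpl27*, *Rps9* and *Rpl11* higher, against 0.665% of all genes, and 0 lower, against 0.325%. The FPKM of the fibronectin libraries lay above those of the uncoated libraries without overlap in 23 of 85 genes (27.1%), against 8.8% of all genes. The smallest p was that of *Rps2*, with 0.15 ± 0.0361 (adjusted p = 0.0842), followed by *Rpl27* with 0.17 ± 0.0415 (adjusted p = 0.0905), *Rps9* with 0.13 ± 0.0346 (adjusted p = 0.131), *Rpl11* with 0.13 ± 0.0351 (adjusted p = 0.152) and *Rpl35* with 0.14 ± 0.0442 (adjusted p = 0.248). *Rpl27* was at 138 ± 5.96 FPKM without and 157 ± 5.37 FPKM with fibronectin (SD, n = 3), and *Rpl11*, whose protein also binds MDM2, was at 124 ± 2.19 and 136 ± 2.91 FPKM. Log2 fold changes were positive in 62 of 85 genes, with a median of 0.030, against -0.00062 over all genes.

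These differences stood beside a trend with gene length. The tested ribosomal protein genes had a median annotated length of 1734 bases, against 4118 bases over all genes. Over 12925 genes, the log2 fold change on fibronectin in IgG correlated with log2 length at a Spearman coefficient of -0.186, as a description across genes, which are not independent replicates. The 1292 shortest genes had a median of 0.042 and the 1293 longest a median of -0.039. When all genes were split by length into 10 bins, the 2 shortest bins held 28 ribosomal protein genes each, with medians of 0.031 and 0.026, against 0.042 and 0.044 for all genes there. In bins 3, 4 and 5, which held 11, 8 and 6 of them, the medians were 0.0043, 0.023 and 0.063, against 0.021, 0.018 and 0.0082, so that ribosomal protein genes lay below all genes in the 3 shortest bins and above them in the next 2. When the trend with length was removed in each library, the median was -0.0044 and 39 of 85 values were positive. By limma 0 genes were called, against 0.224% of all genes higher and 0.0851% lower, and 0 had been called before removal. At an unadjusted p of at most 0.05, 9 were higher and 4 lower after removal, against 4.82% and 3.81% of all genes.

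**Figure D5:**
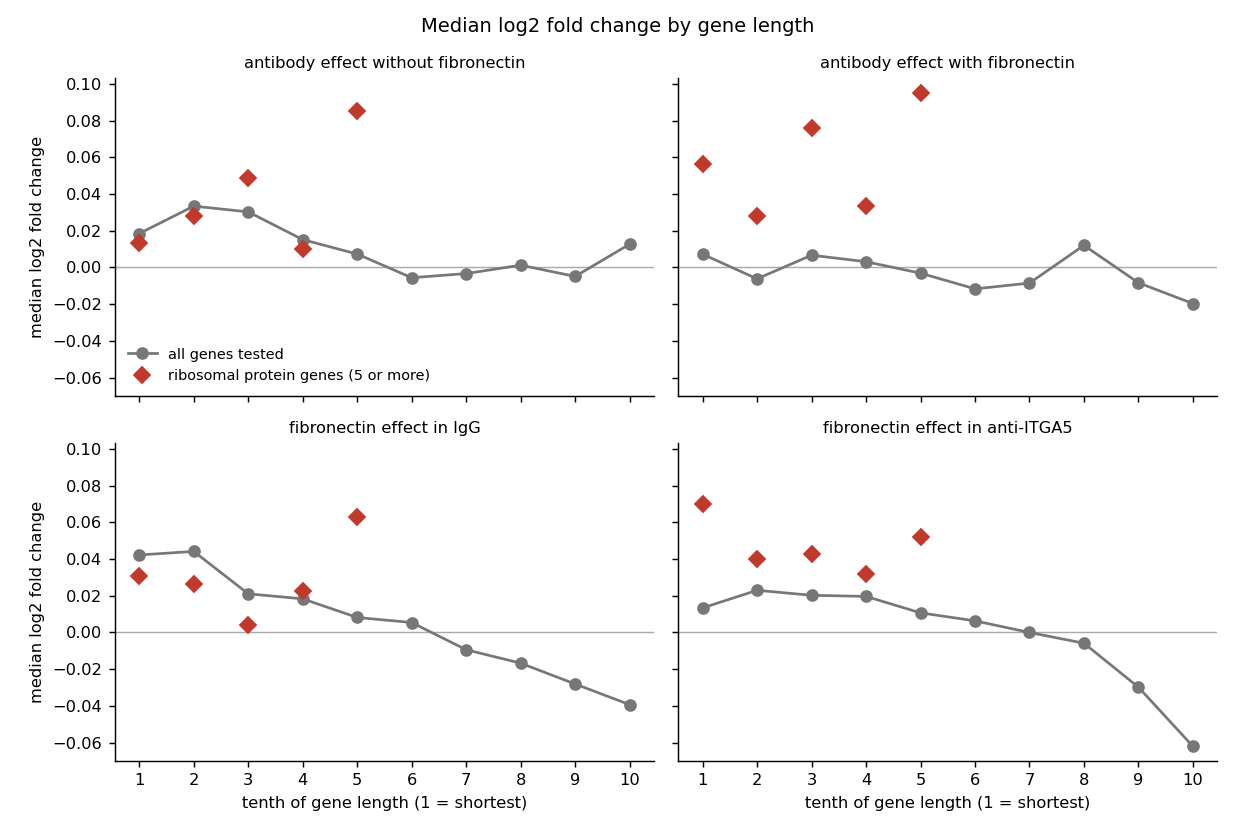
Median log2 fold change of all tested genes in 10 bins of gene length (grey, bin 1 the shortest) and of the ribosomal protein genes in bins that hold 5 or more of them (red), for the 4 pairwise comparisons. On fibronectin the grey medians decline with length and the red points in IgG lie below the grey line in bins 1 to 3 and above it in bins 4 and 5, whereas upon ITGA5 neutralization with fibronectin the grey line lies near 0 and the red points above it.

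The antibody comparisons showed little trend with length, with Spearman coefficients of -0.0283 without and -0.00893 with fibronectin over all genes. With fibronectin, the median of the ribosomal protein genes was 0.057 in the shortest bin and 0.028 in the next, against 0.0072 and -0.0062 for all genes there. After removal of the trend, limma called 18 of 85 genes higher with fibronectin, against 15.2% of all genes, and 1, *Rpl10*, lower, against 13.5%, with a median of 0.050. Without fibronectin, the medians in the 2 shortest bins were 0.013 and 0.028 for the ribosomal protein genes and 0.018 and 0.033 for all genes, and limma gave a median of 0.025 before and 0.0089 after removal of the trend, with 52 and then 45 of 84 values positive. These values include replicate 2 of anti-ITGA5, without which the edgeR median was 0.11. The length trend was not removed in a fit without that library.

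Fibronectin was also examined in anti-ITGA5. No ribosomal protein gene was called among 84 (edgeR), where 0% of all 12863 genes were called higher and 0% lower. DESeq2 called 0 as well, against 0.0311% of all genes higher and 0.00777% lower. At an unadjusted p under 0.05 there was 1 higher gene, *Rps26*, against 1.54% of all genes, and 0 lower, against 2.04%. The libraries did not overlap, with fibronectin above, in 4 genes (*Rpl24*, *Rpl29*, *Rpl6* and *Rps26*), against 5.79% of all genes. Log2 fold changes were positive in 78 of 84 genes with a median of 0.049, but this direction rested on replicate 2 of the uncoated group. Without that library, 20 of 88 values were positive and the median was -0.027.

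The interaction of antibody and coating, which asks whether the antibody response differs between surfaces, was called in no ribosomal protein gene among 86 (edgeR), where 0% of 13455 genes were called higher and 0.0223% lower. DESeq2 called 0, against 0.00743% of all genes higher and 0.0223% lower. At an unadjusted p under 0.05 there was 1 higher gene, *Rps26*, against 1.26% of all genes, and 0 lower, against 1.61%. *Rps26* (chr10:128624534-128626747, minus strand), which encodes a small-subunit protein at the mRNA exit channel, was measured at 257, 264 and 272 FPKM in IgG, 269, 216 and 258 FPKM in anti-ITGA5, 264, 252 and 262 FPKM in IgG with the coating and 277, 295 and 285 FPKM in anti-ITGA5 with the coating. The 3 libraries of the last group lay above the other 9 libraries. The difference between surfaces was 0.22 ± 0.0877 (unadjusted p = 0.0225 and adjusted p = 0.9997 by edgeR), and without replicate 2 it was 0.14 ± 0.0577. *Rps27* followed with 0.26 ± 0.126 and the low-count row *Rps12-ps3* with 1.09 ± 0.569, neither of them called. Log2 differences were positive in 49 of 86 genes with a median of 0.014, but without replicate 2 of anti-ITGA5 without fibronectin they were positive in 15 of 88 genes with a median of -0.068, and 7 genes were lower and 1 higher at an unadjusted p under 0.05, against 2.73% and 2.45% of all genes, with 0 called.

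Of the 17 paralogues and other rows, *Rps27l*, a relative of *Rps27* known as a p53 target, was the highest at 166 FPKM, against 137 FPKM for *Rps27* itself. It was at 160 ± 6.15, 162 ± 20.6, 172 ± 2.81 and 171 ± 9.11 FPKM (SD, n = 3) in the same order of groups, and was called in no comparison. *Rpl7l1*, a relative of *Rpl7* with a role in ribosome assembly, was at 27.4 ± 1.23, 30.9 ± 3.66, 28.3 ± 1.74 and 32.5 ± 0.786 FPKM and rose with fibronectin by 0.20 ± 0.0522 (adjusted p = 0.0128). *Rps19bp1*, a nucleolar binding partner of RPS19 and not a ribosomal protein, was at 20 FPKM on average. *Rpl22l1*, the paralogue of *Rpl22*, was at 6.98 ± 1.14 FPKM in IgG and 5.57 ± 0.593 FPKM in anti-ITGA5 without fibronectin, a log2 fold change of -0.33 ± 0.134 that was not called (adjusted p = 0.115). *Rpl36al*, *Rpl9-ps6*, *Rps12-ps3* and *Rps27rt* had 4 to 38 counts per library, and none was called. The germline and muscle paralogues *Rpl10l*, *Rpl3l* and *Rpl39l*, together with 6 pseudogene-like rows, stayed below the count filter of the pairwise comparisons.

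Other genes of the ribosome and of translation were examined from lists. *Rack1*, a scaffold on the head of the small subunit that the name rule does not include, rose upon ITGA5 neutralization by 0.20 ± 0.0549 without (adjusted p = 0.0267) and by 0.26 ± 0.0406 with fibronectin (adjusted p = 0.000496), whereas *Fau*, which encodes a ribosomal protein fused to a ubiquitin-like protein, was not called. Among 30 ribosome biogenesis genes, 12 were higher and 0 lower without fibronectin, with a median of 0.16, and 15 were higher and 0 lower with fibronectin, with a median of 0.20. Over all genes, 11% and 14.4% were called higher and 9.79% and 13.2% lower, with medians of 0.0090 and -0.0038. At an unadjusted p under 0.05 none of the 30 was lower on either surface, against 16.2% and 18.9% of all genes. The snoRNP protein gene *Nop58* rose by 0.46 ± 0.0551 without (adjusted p = 0.000265) and 0.50 ± 0.0586 with fibronectin (adjusted p = 6.09e-05). *Bop1*, a large-subunit assembly factor, rose by 0.55 ± 0.0797 (adjusted p = 0.000903) and 0.52 ± 0.0542 (adjusted p = 2.63e-05), and *Dkc1*, the pseudouridine synthase, by 0.35 ± 0.0637 (adjusted p = 0.00333) and 0.39 ± 0.0625 (adjusted p = 0.000562). Without replicate 2, 19 of the 30 were higher without fibronectin, where 15.1% of all genes were. The list holds *Rrp1b*, *Rrp9* and *Rrp12*, which were among the low genes of that library.

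Of 77 tested genes of the mitochondrial ribosome, 12 were higher and 0 lower without fibronectin and 16 were higher and 0 lower with fibronectin, with medians of 0.13 and 0.091, against 11% and 14.4% of all genes called higher and 9.79% and 13.2% lower. At an unadjusted p under 0.05 there were 0 lower without and 1 lower with fibronectin, against 16.2% and 18.9% of all genes. Omission of replicate 2 gave 32 higher and 0 lower without fibronectin, against 15.1% of all genes higher and 14% lower. *Mrps11* rose by 0.40 ± 0.109 (adjusted p = 0.0247) and 0.47 ± 0.11 (adjusted p = 0.00721). Of 18 translation factors and other mRNAs with TOP starts, 5 were higher and 2 lower without fibronectin, against 11% and 9.79% of all genes, and 8 were higher and 1 lower with it, against 14.4% and 13.2%. Without replicate 2, 8 were higher and 2 lower, against 15.1% and 14% of all genes. *Hnrnpa1*, an RNA-binding protein gene, rose by 0.57 ± 0.0573 (adjusted p = 8.1e-05) and 0.61 ± 0.0429 (adjusted p = 2.42e-06), and *Eef1d*, a subunit of the elongation factor 1 exchange complex, by 0.35 ± 0.0689 (adjusted p = 0.00489) and 0.35 ± 0.0543 (adjusted p = 0.000447). *Tpt1* fell by 0.21 (adjusted p = 0.0377) and by 0.25 (adjusted p = 0.000365).

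None of 14 RNA polymerase I genes was called on either surface, against 11% and 14.4% of all genes higher, and 2 were higher at an unadjusted p under 0.05 on each, against 17.3% and 19.8%. Without replicate 2, 1 of them was called higher without fibronectin, against 15.1% of all genes. Among 14 regulators of growth and ribosome synthesis, *Mdm2*, the p53 ligase that free ribosomal proteins can bind, fell by 0.52 without (adjusted p = 7.11e-05) and by 0.57 with fibronectin (adjusted p = 1.12e-05). *Eif4ebp1*, an mTORC1 substrate that restrains cap-dependent translation, fell by 0.32 with fibronectin (adjusted p = 0.00317). No regulator was called higher with all libraries, and 2 of 14 were without fibronectin when replicate 2 was left out, against 15.1% of all genes. None of these lists held a called gene on fibronectin in IgG, on fibronectin in anti-ITGA5 or in the interaction, where at an unadjusted p under 0.05 a list held at most 7 higher and 3 lower genes. Both numbers belong to the 77 mitochondrial ribosomal genes, the 7 on fibronectin in IgG, against 5.3% of all genes, and the 3 in the interaction, against 1.61%. The summed level of the 8 macrophage markers was 8980 to 9820 FPKM in IgG and 6130 to 7520 FPKM in anti-ITGA5 without fibronectin, and 9560 to 9760 FPKM and 7340 to 7510 FPKM with it. Most of it was *Lyz2*, at 4560 to 7990 FPKM, and the other 7 markers summed to 1830 to 1870 FPKM in IgG and 1570 to 1740 FPKM in anti-ITGA5 without fibronectin, and to 1850 to 1880 FPKM and 1730 to 1760 FPKM with it. The part of this difference in the ribosomal protein values was not tested.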

How the data were processed

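Total RNA of 12 macrophage samples was sequenced after oligo(dT) enrichment (150-base paired reads). After removal of adapter and low-quality reads, the authors aligned reads with TopHat2 2.0.9 to GRCm38.p6 and counted them per gene with HTSeq 0.6.1. The authors deposited raw counts per gene and FPKM values scaled to annotated gene length and library size. The strand setting, the treatment of reads with several positions and the annotation release are not given in the sources used here. No count column was left out.

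Groups came from the sample labels. Counts were tested with edgeR 4.0.16 in R 4.3.3: filterByExpr (minimum count 10, minimum total 15), TMM scaling, quasi-likelihood test, Benjamini-Hochberg adjustment over all genes tested. Each pairwise comparison used its 6 libraries, and the interaction used 12. Genes with an adjusted p of 0.05 or less are named as called. Standard errors were obtained from the fitted log2 fold change and its F statistic (absolute value over root F). The procedure was tested on simulated counts. Alternatives used DESeq2 1.42.0, limma 3.58.1 on log2 CPM (prior count 2), with a lowess trend on log2 length (span 0.3) removed, limma on log2 FPKM with a pseudocount of 1 or 0.1 and at least 0.5 FPKM in 3 libraries or without a filter, other scalings and filters, a replicate block, a stricter threshold (adjusted p of 0.01) and the omission of single libraries.

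Genes were named by level (5 highest and 5 lowest classic genes), by the 5 smallest adjusted p in each comparison, by the 3 smallest p of the interaction, and as stalk genes, *Rpsa*, tested paralogues and called genes. Members, lists and rules were chosen with earlier results of these data known. Start sequences came from RefSeq, and transcripts and exons from GENCODE M21 on GRCm38. Cell type lists for neutrophil, erythroid, fibroblast, lymphoid and dendritic cells held no gene above 3.42 FPKM. Some genes are not reported here.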

Additional observations from a re-analysis of the deposited data

How the results depend on the processing

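The percentages in parentheses give the share of all genes called in the same direction and fit. Of the ribosomal protein genes called higher without fibronectin (1), the number was 4 with DESeq2 (9.52%), 10 with total counts (14.2%), 2 with at least 10 counts in every library (12.1%), 6 with 12 libraries in one fit (12.8%) and 4 with limma after removal of the length trend (12.2%). It was 0 with limma on log2(FPKM + 1) (8.57%), on log2(FPKM + 0.1) (8.55%) or without a filter (2.66%) and at an adjusted p of at most 0.01 (6.08%). Lower calls (0) numbered 2 when every gene with a count was kept (4.96%) and 1 after removal of the length trend (11.6%). Of the genes called higher with fibronectin (14), the number was 25 with total counts (18.6%), 3 with 12 libraries in one fit (12.9%), 9 with limma on either log2 FPKM scale (12.5%), 1 without its filter (4.05%) and 4 at the stricter threshold (8.66%), and lower calls (0) numbered 1 after removal of the length trend (13.5%). On fibronectin in IgG (0 higher), 4 genes were called with DESeq2 (0.665%) and 3 when every gene with a count was kept (0.683%), and this filter gave 1 higher gene, *Rpl12*, on fibronectin in anti-ITGA5 (0.444%) and in the interaction (0.12%; 0 in both otherwise). The cause of these differences was not tested. The replicate numbers were not taken as pairs in the main fits. Deviations of same-numbered libraries correlated at -0.0196 to 0.149. This does not settle whether they are pairs, since libraries with different numbers were not compared. A replicate block gave 3 higher (12%) and 1 lower gene (11%) without fibronectin, 1 lower gene with fibronectin (17.2%) and 6 higher genes on fibronectin in IgG (2.19%), and the block with the length trend removed gave 9 higher (13.7%) and 3 lower (13.6%), 2 lower (17.6%), and 5 higher genes (1.71%), respectively. No other count of calls changed by more than 1.5 times under the block.

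With each library left out in turn, higher calls ranged from 0 to 40 without fibronectin (6.34% to 15.1%), from 5 to 26 with fibronectin (10% to 15.6%), and from 0 to 2 on fibronectin in IgG (0.0454% to 0.584%), and were 0 on fibronectin in anti-ITGA5 and in the interaction. Lower calls ranged from 0 to 1 without fibronectin, where *Rpl22l1* was called once IgG replicate 3 was left out (5.07%), and were 0 elsewhere. The 40 and 26 were reached without replicate 2 and replicate 3 of the respective anti-ITGA5 group, and the 2 (*Rps2* and *Rpl27*) without IgG replicate 2 with fibronectin (0.584%). Both omitted anti-ITGA5 libraries had the lowest level of these genes in their group, so the 40 and 26 follow in part from that. The median log2 fold change ranged from -0.013 to 0.11 without fibronectin, from 0.038 to 0.10 with fibronectin, from 0.015 to 0.049 on fibronectin in IgG, from -0.027 to 0.094 on fibronectin in anti-ITGA5 and from -0.068 to 0.066 in the interaction. The SD between replicates of the median log2 CPM, pooled over the 4 groups, was 0.079, larger than the median differences in all 5 comparisons. The pooled SD was 0.038 without replicate 2 of anti-ITGA5 without fibronectin. Median differences were 0.055 with fibronectin and 0.030 on fibronectin in IgG. Without the same library, they were 0.11 without fibronectin, -0.027 on fibronectin in anti-ITGA5 and -0.068 in the interaction. The groups differed in spread, with SDs of the classic median deviation of 0.0021 (IgG, uncoated) and 0.0318 (IgG, coated). For anti-ITGA5 the SD was 0.141 uncoated, with all 3 libraries, and 0.0586 coated. The difference of 0.055 with fibronectin was thus below the SD of its own anti-ITGA5 group. The 14 genes called with fibronectin kept a positive log2 fold change in each alternative. Totals of 12954342 to 22075432 counts leave *Rpl24*, *Rpl36al*, *Rps27rt* and similar low rows with SEs above 0.25 on the log2 scale.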

Other observations

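In replicate 2 of anti-ITGA5 without fibronectin, the *Rrp* genes were at 5.08% (*Rrp1*), 6.8% (*Rrp7a*), 7.22% (*Rrp8*), 12.9% (*Rrp15*), 13.8% (*Rrp12*), 18.7% (*Rrp9*), 19.3% (*Rrp1b*) and 24.5% (*Rrp36*) of their median CPM in the other 11 libraries. *Exosc5* and *Dis3*, genes of the RNA exosome, had 79 and 157 counts in this library, and at least 473 and 724 in the other 2 libraries of the group. *Malat1*, a nuclear long noncoding RNA, had 57932 counts there and at most 21329 in the other 2 libraries. Replicate 3 of the same group held 67462 counts on Gm23935 and 38043 on *Lars2*, against at most 9598 and 6099 in replicates 1 and 2. These genes were singled out after their values were seen, and the cause was not tested.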
